A study of Orestias ascotanensis with 42 samples.

Results

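Whether the seasonal difference in RNA levels differs between skin and muscle was examined in wild Orestias ascotanensis, an Andean killifish that lives in the springs of a salt pan (Ascotán, Chile, 3740 m). The skin and muscle columns of both seasons were taken by column name, which gave 28 of the 42 poly-A RNA libraries of the series; the other 14 are gill libraries. The 4 groups were skin from summer fish, skin from winter fish, muscle from summer fish and muscle from winter fish, with 7 libraries each. All fish were wild and netted at 1 site, the summer fish in January 2020 and the winter fish in July 2019, so season cannot be told apart from year or collection. They were killed with an overdose of the anaesthetic MS-222, and each fish gave 1 sample of each tissue, kept in RNAlater. The labels give no age, sex or size of the fish.

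Fish skin is a living epithelium with mucus cells over a dermis that carries the scales, and it meets the water directly. Trunk muscle is made mostly of contractile fibres, and its RNA is dominated by a small number of contractile and energy-supply genes. A gene whose seasonal difference is the same in both tissues has an interaction of 0, whatever its level. The interaction used here is the summer minus winter difference in skin minus that in muscle, on the log2 scale. It is positive where the level is lower in summer muscle, or higher in summer skin, relative to the other tissue. The files do not pair the gene identifiers with names, so a gene's function cannot be given, no gene list or marker could be matched, and at most 2 identifiers are printed per direction of each comparison.

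Library totals lay between 6074371 counts (muscle summer 4) and 154396513 counts (muscle summer 5). All 28 libraries correlated more closely with their own tissue than with the other one, but skin summer 3, skin summer 4 and muscle summer 4 stood apart, with median correlations to their own tissue of 0.804, 0.760 and 0.762 against at least 0.880 in the other 25. Each result is therefore given with all 28 libraries and without these 3. Genes at least 4-fold higher in muscle than in skin and gills took 25.7% ± 7.84 of the counts of summer skin and 21.1% ± 4.52 of those of winter skin (SD, n = 7), with 39.4% in skin summer 3 and 16.1% in skin summer 4. Skin winter 2, 6 and 7, and muscle summer 3, 5, 6 and 7, were unusually close to each other: the median absolute deviation of log2 ratios between libraries was 0.0898 to 0.144 in these 9 pairs and 0.196 to 1.68 in the other pairs of a group. Whether the libraries of a close set are separate samples is not settled by these values, so counts are also given with each set averaged into 1 sample. In bulk tissue, fewer cells of a type and less RNA per cell cannot be told apart.

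Most genes called for the interaction passed the season test in muscle. In the fit of all 28 libraries, 46 of 18696 genes passed an adjusted p of 0.05 for the interaction (0.246%; edgeR quasi-likelihood test with Benjamini-Hochberg adjustment), 44 with a positive and 2 with a negative interaction. Of the 44, 42 fell in summer muscle and 2 passed in neither tissue; both genes with a negative interaction rose in summer muscle. None of the 46 passed the season test in skin, where the smallest adjusted p among them was 0.170. That test passed 1 gene of 18696, so a gene that did not pass may still have moved in skin. The adjustment was made separately for each test, so the pass counts of skin and muscle rest on different limits of unadjusted p. Among all tested genes, an unadjusted edgeR p under 0.05 for season was found for 2583 in skin and 4185 in muscle. The median skin difference of the 44 was 0.86 on the log2 scale. Of the 46, 20 went in opposite directions in the tissues by at least 2-fold in each. The change in muscle was larger than that in skin in 45 of the 46, with median sizes of 0.72 in skin and 3.66 in muscle on the log2 scale. With the fish as a replicate block, which compares skin and muscle within each fish, 86 genes passed, of which 21 were among the 46.

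Leaving out the 3 libraries that stand apart raised the count to 340 of 18920 genes (1.8%), with 217 positive and 123 negative interactions. Of the 217, 210 fell in summer muscle, and of the 123, 121 rose there; the other 9 passed in neither tissue. Again none passed in skin, where the smallest adjusted p among them was 0.275. Among all genes tested in this fit, an unadjusted edgeR p under 0.05 for season was found for 792 in skin and 6149 in muscle. Of the 46 genes called with all libraries, 44 were among the 340, which is 95.7% of the first list and 12.9% of the second. The median muscle difference was -1.50 for the positive and 0.86 for the negative genes, while their median skin difference was 0.13 and -0.14 on the log2 scale. In 278 of the 340 the skin difference was under 0.5 in size. The split between directions moved with the scaling: RLE scaling, the DESeq2 size factors, gave 366 positive and 87 negative of 453. It also moved with the tool: DESeq2 gave 849 positive and 258 negative, limma voom 46 of each, and voom with quality weights 1677 positive and 1770 negative. With all 28 libraries quality weights gave 1758 positive and 1360 negative, against 44 and 2 in edgeR. With the fish as a replicate block the count was 347, and 172 of these genes were among the 340. The block fit also left out muscle summer 3, whose fish had no skin library in this set. Without muscle summer 3 and with no block, the count was 90.

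**Figure D1:**
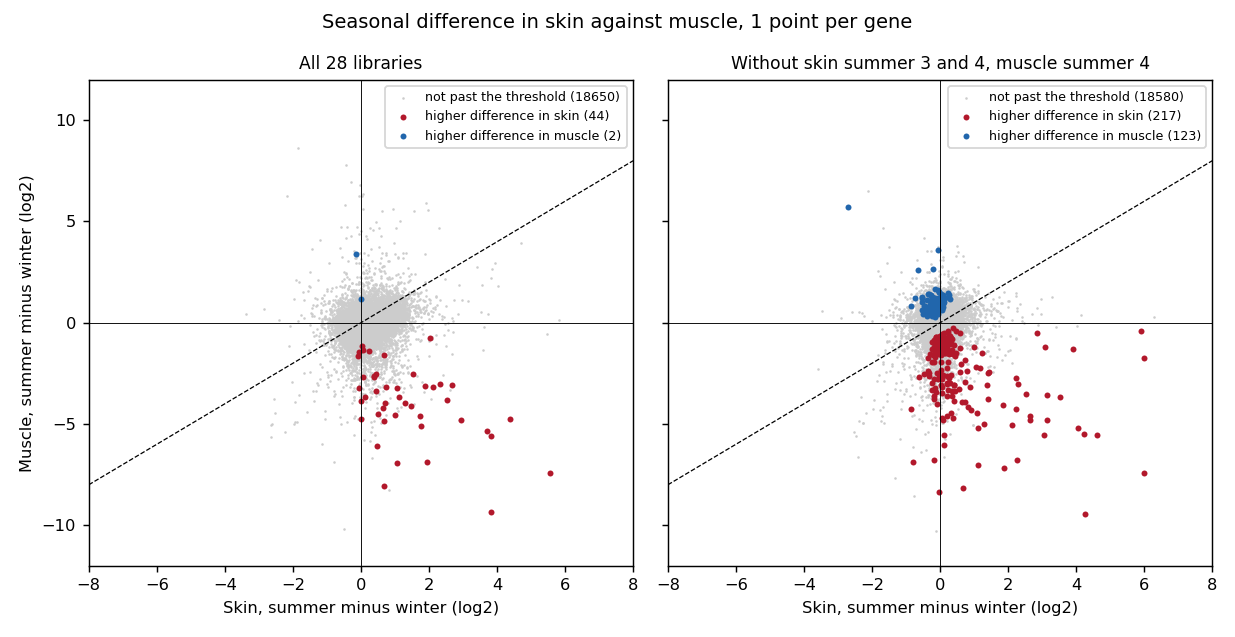
Summer minus winter difference of each tested gene in skin (x axis, log2) and in muscle (y axis, log2), with all 28 libraries on the left and without the 3 libraries that stand apart on the right. Genes past the threshold for the interaction are coloured by direction (44 and 2 on the left, 217 and 123 on the right), and the dashed line marks equal change; on the right 278 of the 340 lie within 0.5 of no change in skin.

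Season was also tested within each tissue. In skin 1 gene passed with all 28 libraries (0.00535%) and the same gene without the 3 libraries (0.00529%); this gene, OAV3G000020083, picked out after its values were seen, rose in summer skin by 1.89 ± 0.29 (SE, log2; edgeR adjusted p = 0.00745), with an interaction of 1.32 ± 0.40 that did not pass (adjusted p = 0.130). Without the 3 libraries its skin difference was 1.19 ± 0.18 (adjusted p = 0.00730) and its interaction 0.75 ± 0.25 (adjusted p = 0.103). It was not among the 232 genes that DESeq2 called for season in skin, and edgeR lost it with the close libraries averaged. In muscle 1194 genes passed with all libraries (6.39%), 309 higher and 885 lower in summer, and 3446 without the 3 libraries (18.2%), 1350 higher and 2096 lower. Most genes that changed in muscle therefore had no called interaction. In the fit of 25 libraries these were 1229 genes that rose in muscle by a median of 0.73, with a median skin difference of 0.06, and 1886 genes that fell by a median of -0.73, with a median skin difference of -0.09. A missed interaction does not show that skin moved as muscle did. With 1 summer skin library left out, the skin count was 3 (library 1), 4 (library 2), 1 (library 3 or 4) or 2 (library 5, 6 or 7). The muscle count fell to 520 without muscle winter 2 and 756 without muscle winter 6. Without muscle summer 3, 5, 6 or 7, the close set, it fell to 817, 797, 796 and 793. It was 872 without muscle winter 7. Leaving out muscle winter 1, 4 or 5, muscle summer 2, or skin summer 3 or 4 raised it, up to 1782 without skin summer 4. With any other library left out it was slightly lower than 1194, at 1070 to 1163.

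The genes with the smallest p in each direction, among those with an average log2 CPM (count scaled to library size) of at least 1, show the forms that the interaction took. OAV3G000008776 changed mostly in muscle. Its lowest, median and highest CPM were 63.2, 70.9 and 100.5 in summer skin, against 70.0, 79.4 and 87.3 in winter skin. In summer muscle they were 42.5, 70.0 and 104, against 126, 205 and 280 in winter muscle. The seasons overlapped in skin and did not overlap in muscle, where every winter library lay above every summer library. Summer skin without libraries 3 and 4 was at 63.2 to 72.0 CPM. Without the 3 libraries that stand apart, the skin difference was -0.22 ± 0.18 and the muscle difference -1.31 ± 0.17 (SE, log2). The interaction was 1.37 ± 0.28 (SE; edgeR adjusted p = 0.0375) with all libraries and 1.08 ± 0.25 (adjusted p = 0.0303) without the 3. Winter muscle was split for this gene: muscle winter 1, 4 and 5 were at 128, 126 and 140 CPM and the other 4 at 205 to 280. The split was not particular to this gene. Among muscle winter 1, 4 and 5 the median absolute deviation of log2 ratios was 0.275 to 0.462. Among the other 4 it was 0.310 to 0.646, and between these sets 0.649 to 1.01. The TMM scaling factors were 0.826, 0.835 and 0.836 in muscle winter 1, 4 and 5, and 0.569, 0.476, 0.499 and 0.421 in muscle winter 2, 3, 6 and 7; their part in the result was not tested, beyond RLE and upper-quartile scaling, which gave interactions of 1.44 and 1.31.

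OAV3G000002441 went the other way, and it is the gene with the smallest p among negative interactions at that level. Skin held 13.7, 14.8 and 15.7 CPM in summer (lowest, median and highest), against 13.1, 15.1 and 16.7 CPM in winter. Muscle held 29.3, 51.4 and 67.7 CPM in summer, against 15.6, 21.0 and 33.2 CPM in winter. Skin was thus nearly level in all 14 libraries, while summer muscle was above winter muscle except that muscle summer 1 and 2, at 29.3 and 30.8 CPM, lay below muscle winter 1 at 33.2 CPM. The interaction was -1.18 ± 0.24 (SE; edgeR adjusted p = 0.0375), and -1.15 ± 0.23 (adjusted p = 0.0205) without the 3 libraries. The second gene with a negative interaction, OAV3G000002591, had an average log2 CPM under 1 and an interaction of -3.54 ± 0.75 (adjusted p = 0.0375); it was picked out after its values were seen.

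OAV3G000003139, with the smallest p of all, shows a different form: low, scattered levels of a gene that was abundant in gills, at 382 ± 58.4 CPM in summer gills and 360 ± 49.7 CPM in winter gills (SD, n = 7). In skin it was at 0.880, 2.92 and 15.5 CPM in summer (lowest, median and highest), against 0.114, 1.15 and 2.69 CPM in winter. In muscle it was at 0, 0.0479 and 0.106 CPM in summer, against 0.0337, 0.782 and 30.8 CPM in winter. Muscle winter 2 held the 30.8, muscle winter 6 and 4 held 10.6 and 7.99, and the other 4 winter libraries were at 0.782 or less. The interaction of 8.82 ± 1.44 (SE; edgeR adjusted p = 0.0175) was fitted on levels near 0 in summer muscle, so its size is uncertain. It passed in 27 of 28 fits with 1 library left out, and had an adjusted p of 0.0507 without muscle summer 3. With the season taken from the tags of skin summer 7 and muscle winter 4, which name the other season than their titles, the interaction was 4.30 (adjusted p = 0.174).

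**Figure D2:**
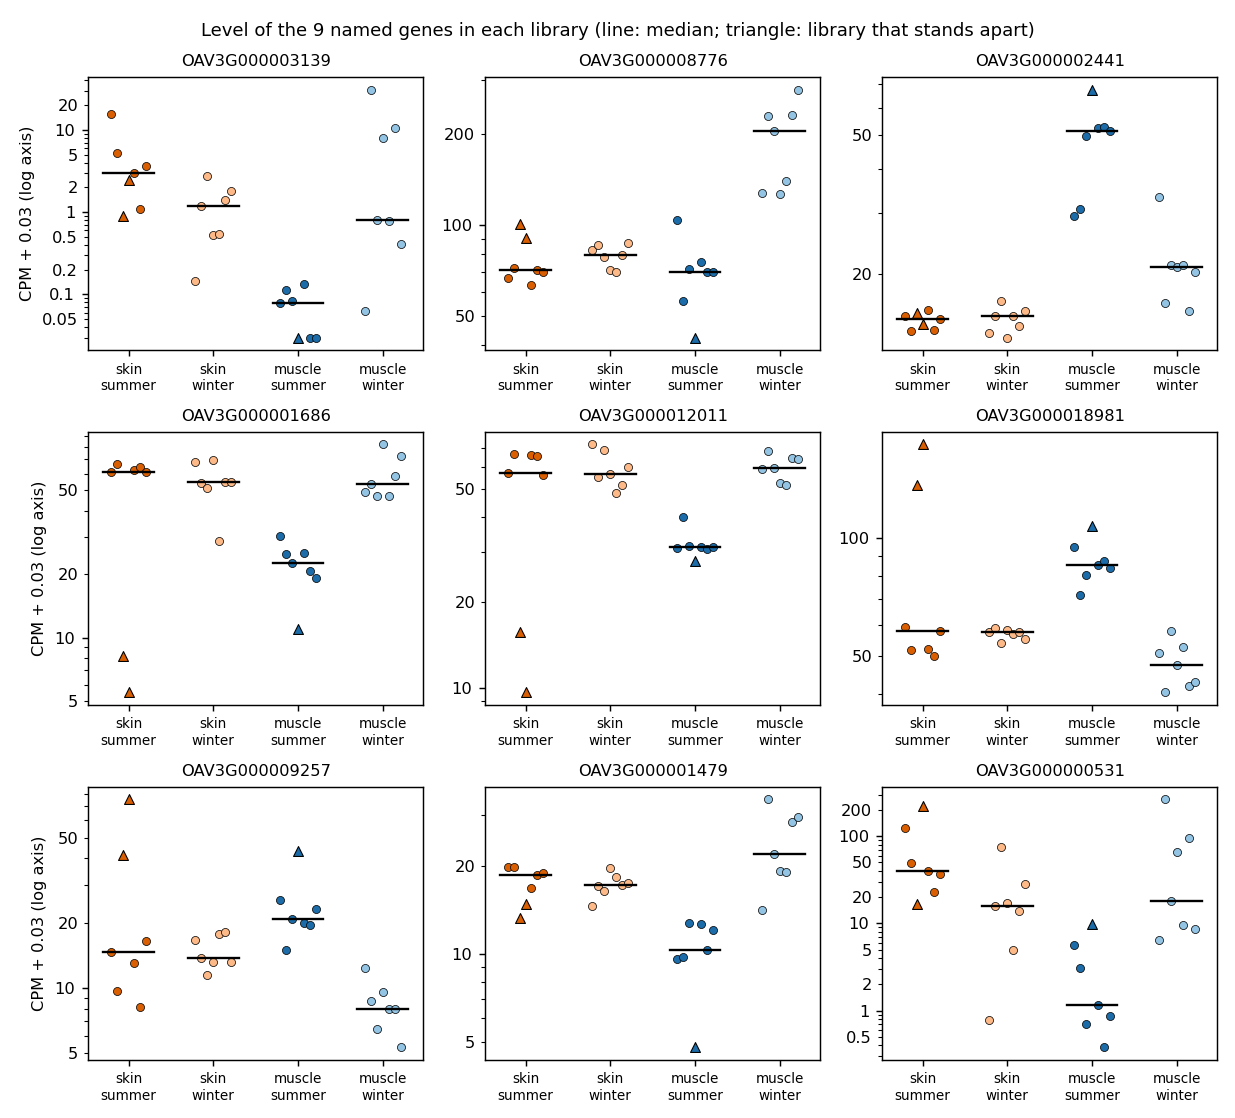
Level of the 9 named genes in every library (CPM + 0.03, log axis) in skin and muscle, summer and winter, with a line at each group median and triangles for skin summer 3, skin summer 4 and muscle summer 4. In the middle row and OAV3G000009257 the triangles of summer skin lie on the side to which summer muscle moved.

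In the fit of 25 libraries the genes with the smallest p overlapped between seasons in skin and did not overlap in muscle. OAV3G000018981 had 50.0 to 59.2 CPM in the 5 remaining summer skin libraries, against 53.8 to 58.9 CPM in winter skin. In muscle it had 71.3 to 94.7 CPM in the 6 remaining summer libraries, against 40.3 to 58.0 CPM in winter. The skin seasons overlapped and the muscle seasons did not. Its interaction was -0.95 ± 0.14 (SE; edgeR adjusted p = 0.00947). With all 28 libraries it was -0.33 ± 0.33 (adjusted p = 0.711), where skin summer 3 and 4 were at 136 and 173 CPM.

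OAV3G000009257 moved likewise, with 8.12 to 16.5 CPM in the 5 summer skin libraries, against 11.5 to 18.2 CPM in winter skin. Muscle had 14.9 to 25.6 CPM in the 6 summer libraries, against 5.26 to 12.4 CPM in winter, with no overlap. The interaction was -1.65 ± 0.27 (SE; edgeR adjusted p = 0.0133), and -0.72 ± 0.51 (adjusted p = 0.566) with all 28 libraries, where skin summer 3 and 4 were at 41.5 and 75.2 CPM.

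In the positive direction, OAV3G000001686 had 61.0 to 66.8 CPM in the 5 summer skin libraries, against 28.8 to 69.7 CPM in winter skin. In muscle it had 19.2 to 30.5 CPM in the 6 summer libraries, against 47.0 to 82.4 CPM in winter. Summer muscle lay below winter muscle in every library, and skin overlapped. The interaction was 1.45 ± 0.24 (SE; edgeR adjusted p = 0.0133), against 1.16 ± 0.51 (adjusted p = 0.311) with all 28 libraries, which include skin summer 3 and 4 at 8.20 and 5.48 CPM. With the season from the tag it was 0.91 (adjusted p = 0.188).

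OAV3G000012011 also fell in summer muscle. Skin was at 56.2 to 66.4 CPM in the 5 summer libraries, against 48.6 to 72.0 CPM in winter. Muscle was at 30.8 to 39.8 CPM in the 6 summer libraries, against 51.7 to 68.0 CPM in winter, with no overlap. Muscle summer 2 held the 39.8, and the other 5 lay between 30.8 and 31.5. Its interaction was 0.89 ± 0.15 (SE; edgeR adjusted p = 0.0133), and 0.58 ± 0.38 (adjusted p = 0.529) with all 28 libraries, where skin summer 3 and 4 were at 15.7 and 9.61 CPM. All 4 of these genes passed in each of the 25 fits that left out 1 more library. They were chosen by their p in this fit, and those fits share most of its libraries, so this is no second test. Each of those fits also kept most of the close muscle libraries. With the close sets averaged, none of these genes passed in edgeR. The adjusted p was then 0.309 for OAV3G000001686, OAV3G000012011 and OAV3G000018981.

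A further rule took genes whose interaction and muscle season test passed in both fits, and whose skin season test passed in neither. With a mean muscle level of at least 10 CPM these numbered 10. No gene met the same rule with skin as the moving tissue. None could, because the only gene past the skin season test had no called interaction in either fit. Of the 10 genes, the 2 with the smallest p that fell in muscle and were not named above were OAV3G000001479 and OAV3G000000531. OAV3G000001479 had 13.3, 18.6 and 19.9 CPM in summer skin (lowest, median and highest), against 14.6, 17.2 and 19.6 CPM in winter skin. It had 4.74, 10.3 and 12.7 CPM in summer muscle, against 14.1, 21.9 and 33.9 CPM in winter muscle. The muscle seasons did not overlap, and skin did. The interaction was 1.19 ± 0.27 (SE; edgeR adjusted p = 0.0437) with all libraries, 1.14 ± 0.22 (adjusted p = 0.0168) without the 3, and 1.18 (adjusted p = 0.0655) with the fish as a replicate block.

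OAV3G000000531 was, like OAV3G000003139, a gene of gills, at 2404 ± 405 CPM in summer gills and 2364 ± 581 CPM in winter gills (SD, n = 7). It had 16.5, 40.2 and 222 CPM in summer skin, against 0.745, 15.7 and 75.0 CPM in winter skin. In muscle it had 0.349, 1.12 and 9.74 CPM in summer, against 6.44, 17.9 and 265 CPM in winter. The 265 was muscle winter 2, followed by muscle winter 6 at 95.9 and muscle winter 4 at 66.0. The interaction was 6.32 ± 1.28 (SE; edgeR adjusted p = 0.0375) with all libraries and 6.27 ± 1.29 (adjusted p = 0.0216) without the 3. It was 4.31 (adjusted p = 0.130) with the season from the tag, and 6.43 (adjusted p = 0.0530) with the conflicting libraries left out. OAV3G000002441 and OAV3G000001479 also lost their calls under both treatments of the tag, with adjusted p of 0.0659 and 0.0782 from the tag and 0.0555 and 0.0601 with those libraries left out. In limma voom these 3 genes, OAV3G000003139 and OAV3G000008776 lost their calls, with adjusted p from 0.144 to 0.190. The calls of OAV3G000008776, OAV3G000002441, OAV3G000001479 and OAV3G000000531 with all 28 libraries were near the threshold. Each was lost without any 1 of muscle summer 3, 5, 6 or 7, muscle winter 2 or 6, skin summer 2 or 7, or skin winter 1, 2, 4, 5, 6 or 7. All but OAV3G000008776 were also lost without skin summer 1. OAV3G000001479 and OAV3G000000531 were lost without skin summer 4, and OAV3G000001479 without muscle summer 1, muscle winter 7, skin summer 6 or skin winter 3. The highest adjusted p among these fits was 0.127, for OAV3G000001479 without muscle winter 2.

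Skin minus muscle was also taken within each fish, with no model across genes. The difference of OAV3G000003139, OAV3G000001479 and OAV3G000000531 was higher in all 7 summer fish than in all 7 winter fish, so that a two-sided exact permutation test over 3432 splits gave p = 0.000583, the smallest it can give. For OAV3G000001479 it averaged 0.81 ± 0.50 in summer fish and -0.41 ± 0.42 in winter fish (SD, n = 7, log2). The other named genes overlapped between seasons with all 14 fish. In the same permutation test OAV3G000001686, OAV3G000012011 and OAV3G000018981 had p of 0.156, 0.455 and 0.0828. For OAV3G000008776, OAV3G000002441 and OAV3G000009257 it gave p of 0.00117, 0.00175 and 0.0117. Without summer fish 3 and 4, 7 of the 9 named genes did not overlap between 5 summer and 7 winter fish; OAV3G000008776 and OAV3G000002441 did. These genes were chosen by the same contrast, so the values describe them and are no second test. Among all tested genes, the seasons did not overlap in 145 (0.776%) with 14 fish, and in 522 (2.76%) with 12. Among the called genes this held for 17 of 46 and 179 of 340.

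Overlap between the seasons was also counted within each tissue. Summer and winter libraries did not overlap in muscle for 437 of the tested genes (2.34%) with all libraries and 660 (3.49%) without the 3. In skin they did not overlap for 145 (0.776%) and 339 (1.79%). Of the 340 called genes, 7 had no overlap in skin (2.06%, against 1.79% of all tested genes). In muscle 141 had none (41.5%), 49 with summer above winter and 92 with summer below it. These genes were chosen by a contrast of the same libraries, and 331 of them passed the season test in muscle. Their separation in muscle is thus largely built in and is no second test. Without the 3 libraries, fewer summer libraries were left in skin than in muscle, so non-overlap by chance was likelier in skin.

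The expression level of the called genes differed between the fits. CPM is not scaled for gene length, so levels here order genes by how deeply they were counted. With all 28 libraries, 5 of the 46 had a highest group mean under 1 CPM, 20 had 1 to 10, 16 had 10 to 100 and 5 had 100 CPM or more. Those bins held 0.297%, 0.359%, 0.168% and 0.261% of their tested genes as called. Without the 3 libraries the same bins held 18, 74, 215 and 33 called genes, or 0.865%, 1.31%, 2.31% and 1.76% of those tested. From the lowest bin to the highest, the median size of the interaction in these genes was 6.67, 3.20, 1.09 and 0.96 on the log2 scale, and its median standard error was 1.54, 0.77, 0.25 and 0.23. Over all tested genes of these bins the median standard error was 0.86, 0.42, 0.25 and 0.29. A gene with a larger standard error needs a larger interaction to be called, so these sizes do not compare the strength of interactions between levels. All 18 genes of the lowest bin had a positive interaction.

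**Figure D3:**
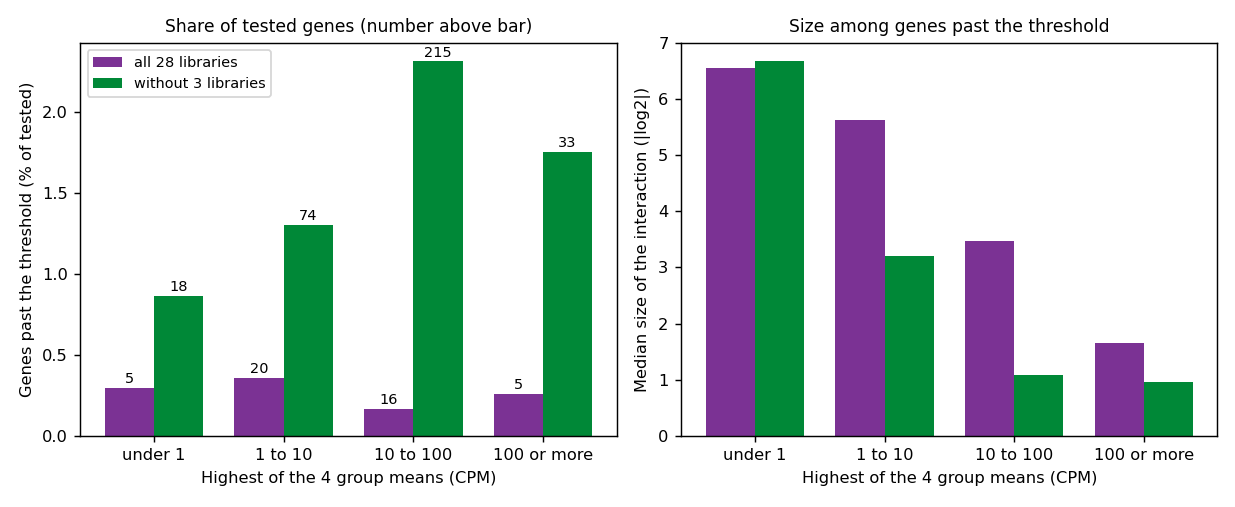
Genes past the threshold as a percent of those tested (left, number above each bar) and the median size of their interaction (right, log2), by the highest of the 4 group means in CPM, with all 28 libraries and without the 3 that stand apart. Without the 3 libraries most called genes (215) lie at 10 to 100 CPM with a median size of 1.09, while the 18 under 1 CPM have a median size of 6.67. Sizes are of called genes only, and a larger standard error demands a larger size for a call.

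The called genes fell into genes enriched in gills, a tissue that did not enter the fit, and the rest. Gill-enriched genes, at least 4-fold higher in gills than in skin and muscle over all 42 libraries, made up 29 of the 46 called genes and 65 of the 340, against 3.19% and 3.32% of the tested genes. All of them had a positive interaction. The medians of these 65, from the 25 libraries, were 2.72 CPM in summer skin, against 1.35 CPM in winter skin, and 0.113 CPM in summer muscle, against 1.69 CPM in winter muscle; in gills it was 40.5 CPM. Muscle winter 2 held the highest winter muscle level for 59 of the 65 (90.8%), against 19.3% of all tested genes. Without muscle winter 2 as well, 20 of the 65 still passed. The share of all counts that went to gill-enriched genes outside the called set was 0.149% in muscle winter 2 and 0.125% in muscle winter 4, and 0.0368% to 0.0808% in the other 5 winter muscle libraries. It was 0.0495% to 0.113% in summer muscle, with the highest value in muscle summer 4. The part of this gill-type RNA in the interaction was not tested.

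The other 275 genes called without the 3 libraries had 152 positive and 123 negative interactions, with a median size of 1.10 on the log2 scale. Muscle winter 2 was the highest winter muscle library for 76 of them (27.6%), and 122 still passed without it. That share pools both directions. Muscle winter 2 was highest for 6 of the 123 negative genes (4.88%), so most of the 76 were among the 152 positive genes. Over all 217 positive genes, gill-enriched or not, it was highest for 129 (59.4%). Of the 35 called genes whose level went in opposite directions in the tissues by at least 2-fold in each, 26 were gill-enriched and 9 were not. OAV3G000003139 and OAV3G000000531 are of this kind, but no skin difference among the 340 passed its own test. No gene enriched in muscle was among the 46, and 8 were among the 340, or 2.35% against 5.84% of the tested genes.

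The libraries left out of the second fit offer levels that did not choose the 340 genes. Muscle summer 4 was below the winter muscle median for 175 of the 210 genes that fell in muscle (83.3%) and above it for 84 of the 121 that rose (69.4%); among all tested genes it was below in 64.1% and above in 34.6%. Skin summer 3 was above the winter skin median for 96 of the 121 genes that rose in muscle (79.3%), and skin summer 4 for 94 (77.7%), against 48.2% and 47.7% of all tested genes. For the 210 genes that fell in muscle, they were below it for 163 (77.6%) and 124 (59.0%), against 51.5% and 51.9%. Their median ratio to the winter skin median for the genes that rose in muscle was 1.12 and 1.34 on the log2 scale. The 5 summer skin libraries in the fit were above the winter skin median for 19.8% to 50.4% of the genes that rose in muscle. Those 5 helped choose the genes, so their shares are no independent comparison. In skin summer 3 and 4, then, these genes stood on the side to which summer muscle moved. The muscle-enriched share was the highest of summer skin in skin summer 3 (39.4%) and the lowest in skin summer 4 (16.1%), and the part of admixed muscle RNA was not tested. The winter medians come from libraries that the fit did use.

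**Figure D4:**
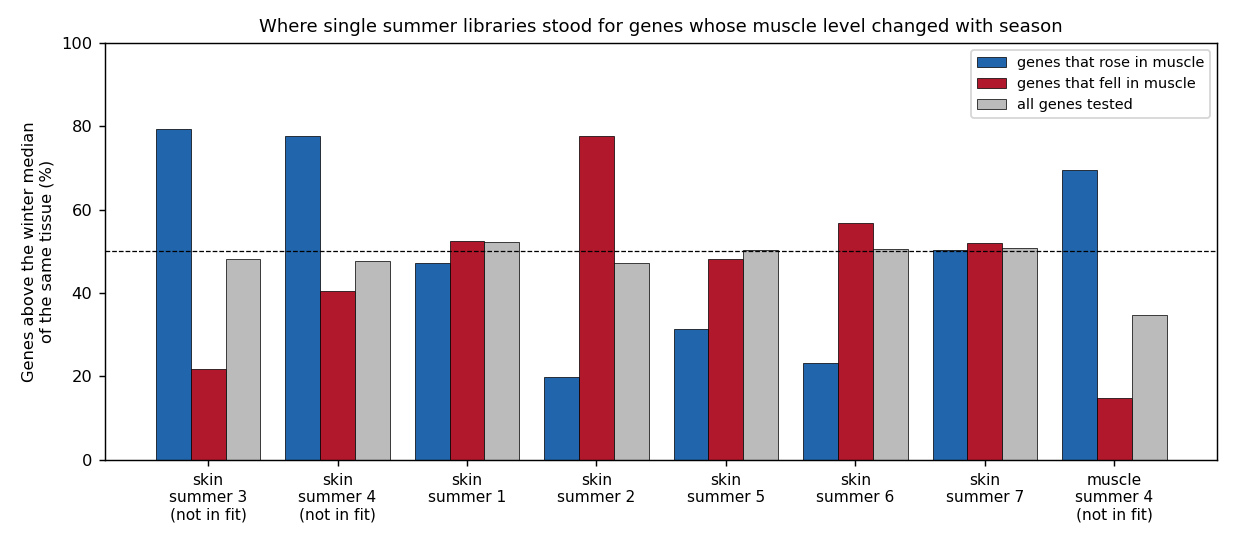
Percent of genes above the winter median of the same tissue in single summer libraries, for the genes that rose (121) or fell (210) in summer muscle with a called interaction and for all tested genes. Skin summer 3 and 4, which were not in the fit, lie at 79.3% and 77.7% for the genes that rose in muscle. The 5 summer skin libraries in the fit, which helped choose these genes, lie at 19.8% to 50.4%.

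Gills were also outside the fit. The median summer minus winter difference was -0.02 for the 210 genes that fell in muscle and 0.13 for 120 of those that rose, against 0.02 for all tested genes (log2). The quartiles of the 120 were 0.05 and 0.24, against -0.10 and 0.16 for all tested genes. No gene passed the season test in gills, in these sets or among all tested genes.

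The number of genes past the threshold rested on single libraries. With all 28 libraries it was 46, and it was 0, 1, 6 and 4 without muscle summer 3, 5, 6 and 7, the close set (at 0 called, 2362 genes had an unadjusted edgeR p under 0.05), and 25 without muscle summer 1. It was 223 without muscle summer 2. Leaving out winter muscle libraries 1, 4 and 5 gave 179, 75 and 143, and libraries 2 and 6 gave 7 and 10. Of skin, summer libraries 1, 2, 4, 5 and 7 gave 14, 11, 17, 83 and 7, and winter libraries 1 to 7 gave 8, 6, 26, 5, 10, 6 and 5. With the 3 libraries already out, 340 became 90, 76, 95 and 97 without muscle summer 3, 5, 6 and 7, and 940 without muscle summer 2. It became 1009, 573, 846 and 716 without muscle winter 1, 3, 4 and 5, and 145 without either muscle winter 2 or 6. Summer skin 1, 2, 5, 6 and 7 gave 147, 95, 97, 87 and 110, and winter skin 1, 2, 5, 6 and 7 gave 163, 185, 113, 146 and 193.

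**Figure D5:**
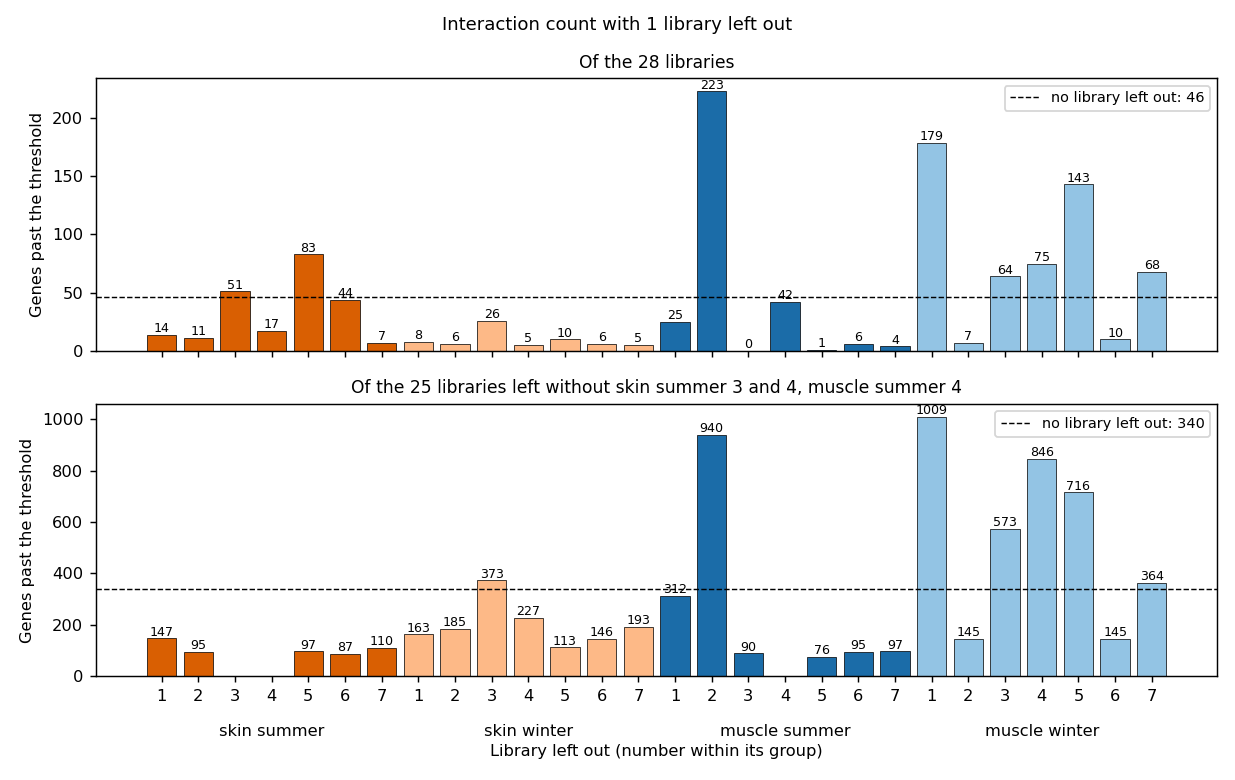
Number of genes past the threshold for the interaction when each library is left out in turn, from the 28 libraries (top) and from the 25 left without the 3 that stand apart (bottom). The dashed lines mark 46 and 340 genes, and the bars run from 0 to 223 and from 76 to 1009.

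With the close sets averaged into 1 sample each, no gene passed in edgeR. Averaging left 5 samples of winter skin and 4 of summer muscle with all libraries. Without the 3, muscle summer 4 was out as well, which left fewer samples of summer muscle. An unadjusted p under 0.05 was found for 1924 of 18969 genes with all libraries and for 2153 of 19100 without the 3. Limma voom on the averaged data gave 0 genes and DESeq2 64 and 101. The 9 named genes kept their sign, and in edgeR their interactions ranged from -1.57 to 9.27 with adjusted p from 0.290 to 0.372.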

How the data were processed

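The authors deposited raw counts per gene for 21024 genes in 42 libraries of unstranded 150 bp read pairs. Tools listed, with no role, in the submitters' processing notes are HISAT2 2.2.1, SAMtools 1.10, Cufflinks, Trim Galore 0.6.6 and FastQC. For the build, annotation and counter, none is given in the sources used here. Of deposited counts from 1 to 10, 75.8% were even, as when both mates are counted. Overlapping, antisense and near-copy genes cannot be told apart in unstranded counts.

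Groups follow the sample titles. The season tag of muscle winter 4 and of skin summer 7 names the other season. Skin and muscle of the same season and number come from 1 fish, per the labels. The mean correlation of deviations was 0.135 within a fish and -0.02 between fish of a season. It was over 0.1 in 8 of 14 fish. Only 5 skin libraries correlated best, within their season, with the muscle of their own fish, so these values give the pairing little support. P-values rest on the spread between these libraries, each taken as a separate sample. The main fits do not use the pairing of tissues within a fish.

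The analysis used R 4.3.3, edgeR 4.0.16 (robust quasi-likelihood, TMM, filterByExpr, 4 groups), limma 3.58.1 and DESeq2 1.42.0, with adjusted p under 0.05 over all tested genes. Standard errors are the log2 difference over the root of F. CPM was TMM-scaled over all 42 libraries, and within-fish log2 CPM used a prior count of 2. The script was tested on simulated data.

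Members, lists and naming rules were chosen with earlier results of these data known. Named genes were those with the smallest p per direction with all 28 libraries (average log2 CPM of at least 1), then the next without the 3 libraries, then those past the threshold in both fits with 1 moving tissue at 10 CPM or more, up to 2 each.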

Additional observations from a re-analysis of the deposited data

Results flagged for a closer look

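The interaction test is itself a test of a seasonal difference that differs between tissues, and it marks each named gene. With all 28 libraries the interactions were 8.82 (OAV3G000003139), 1.37 (OAV3G000008776), -1.18 (OAV3G000002441), 1.19 (OAV3G000001479) and 6.32 (OAV3G000000531) on the log2 scale. Without the 3 libraries that stand apart they were 1.45 (OAV3G000001686), 0.89 (OAV3G000012011), -0.95 (OAV3G000018981) and -1.65 (OAV3G000009257).

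Single libraries lay farther from their group than Dixon's 95% limit for 7 samples allows in 12 of 56 groups of values. For independent normal values, chance marks about 1 in 20. These values were taken without logs and come from the same libraries, so an excess over that rate cannot be read from them. For OAV3G000003139 these were skin summer 1 at 15.5 CPM (next 5.19) and muscle winter 2 at 30.8 CPM (next 10.6). For OAV3G000000531 they were skin winter 3 at 75.0 CPM (next 28.4) and muscle winter 2 at 265 CPM (next 95.9). OAV3G000002441 had muscle winter 1 at 33.2 CPM (next 21.2), and OAV3G000012011 had muscle summer 2 at 39.8 CPM (next 31.5). Muscle summer 4 was marked for OAV3G000009257 at 43.2 CPM (next 25.6) and for OAV3G000001479 at 4.74 CPM (next 9.54).

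Among shares of all counts, muscle summer 4 was marked for gill-enriched genes, at 0.120% (next 0.0741%), and for the 217 genes with a positive interaction, at 0.235% (next 0.206%). Those 217 genes took 0.394% of skin summer 3 (next 0.781%), and the 123 with a negative interaction took 0.861% of skin summer 4 (next 0.480%).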

How the results depend on the processing

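No named interaction changed sign under any alternative run. Counts of called genes moved by tool, scaling and library set, and the cause was not tested; averaging also leaves fewer samples. With all 28 libraries, the interaction count of 46 became 86 with RLE scaling, 538 in DESeq2, 1 in limma voom, 3118 with voom quality weights, 86 with the fish as a replicate block, 14 without the libraries of conflicting season tag, 25 with the season from the tag, 931 in 1 fit of all 42 libraries, 340 without the 3 libraries, and 0 to 223 with 1 library left out. With the close libraries averaged it was 0 in edgeR (1924 with an unadjusted p under 0.05), 0 in limma voom (1189), 1 with quality weights, 64 in DESeq2, and 0 in edgeR without the 3 libraries (2153).

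Without the 3 libraries, the count of 340 became 1107 in DESeq2, 92 in limma voom, 3447 with quality weights, 175 with the season from the tag, 1588 with gill libraries added to the fit, 347 with the replicate block, and 76 to 1009 with 1 more library left out. Averaged, it was 0 in edgeR, 101 in DESeq2, 0 in limma voom (1848) and 0 with quality weights (3907). These alternatives, and the averaged data with tools other than edgeR, were chosen after seeing the data. The replicate block that gave 347 also left out muscle summer 3.

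For season in skin, the count of 1 became 232 in DESeq2, 4014 with quality weights, 2 under both treatments of the season tag, 289 in 1 fit of 42, and 1 to 4 with 1 library left out. Averaged, it was 0 in edgeR with all libraries (1755) and without the 3 (482), 5 in DESeq2 and 0 in limma voom (1365). For season in muscle, 1194 became 2251 in DESeq2, 467 in limma voom, 4919 with quality weights, 2896 in 1 fit of 42, 3446 without the 3 libraries and 520 to 1782 with 1 left out. Averaged with all libraries, it was 63 in edgeR, 820 in DESeq2, 899 with quality weights and 0 in limma voom (1858). Averaged without the 3 libraries, it was 269 in edgeR. Season differs between fish, so it has no paired fit. The 6074371 counts of muscle summer 4 limit low genes there.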
